A study of Mus musculus with 8 samples.

Results

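Mouse embryonic stem cells (ESCs) kept in LIF and the MEK inhibitor PD (LIF+PD) were compared with ESCs kept in the GSK3 inhibitor CH and the same MEK inhibitor (2i). The comparison holds 4 of the 8 cultures of the series, 2 in LIF+PD and 2 in 2i, chosen by their labelled medium alone. All cultures were of RGd2, a single line of strain 129 that carries short-lived GFP at Zfp42 (also called Rex1), grown on gelatin in serum-free N2B27 medium and sampled at passage 11. They had spent 6 passages in 2i and then 5 in the stated medium, with replating every 3 days at 15000 cells per square centimetre. The 2i cultures received 3 μM CH and 1 μM PD without LIF, and the LIF+PD cultures 1 μM PD and LIF without CH. Cells of both media were therefore under MEK inhibition, and they differed by an exchange of CH for LIF. The other 4 cultures, 2 in 2i+LIF (CH, PD and LIF together) and 2 in CH+LIF, entered the statistical fit, and 2i+LIF is given beside some values because it lies between the compared media by 1 factor on each side. Since the labels do not say whether the cultures of a medium were derived apart, p-values measure only the spread between these samples.

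LIF binds a receptor made of Lifr and gp130 (Il6st), which activates JAK kinases and the transcription factor Stat3, and Stat3 in turn switches on its own feedback inhibitor Socs3. CH blocks GSK3, the kinase that marks β-catenin for destruction, so that β-catenin accumulates, relieves repression by Tcf7l1 and activates Wnt targets such as Axin2. PD blocks MEK and with it ERK, the signal that moves ESCs towards lineage commitment. Any pair of the 3 factors is known to sustain naive ESCs in serum-free medium.

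Levels are given as FPKM (fragments adjusted for transcript length and for library size), as deposited for each culture. Differences are LIF+PD minus 2i on the scale of log2(FPKM + 1), which understates the change of weakly expressed genes, with the standard error (SE) and the Benjamini-Hochberg adjusted p of a limma fit to all 8 cultures. A gene was called higher or lower at an adjusted p below 0.05. Of 38991 genes, 12777 spanned at least 300 bases, reached 1 FPKM in 2 or more of the 8 cultures and were tested. A gene that passed only through LIF+PD, or only through 2i, could hardly be called in the other direction.

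Socs3 and Axin2 report the 2 pathways that the media exchange, and both followed the labels. Socs3 (ENSMUSG00000053113, mm10 chr11:117966079-117970047) had an FPKM of 2.59 and 1.29 in the 2i cultures and of 70.3 and 75.7 in the LIF+PD cultures. That is a 37.6-fold higher mean, or a log2 difference of 4.69 ± 0.21 (SE, adjusted p = 1.44e-05). Axin2 (ENSMUSG00000000142, chr11:108920349-108950783) went the other way, from 65.4 and 64.9 in 2i to 1.85 and 2.47 in LIF+PD. Its mean was 30.2-fold higher in 2i, and the log2 difference was -4.40 ± 0.11 (SE, adjusted p = 4.05e-06). For both genes the cultures of 1 medium lay far outside those of the other.

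The promoters of Socs3, Cish, Sp5 and T (Brachyury) are shown because these genes were among the most changed of the JAK-STAT3 and Wnt lists and hold a match to a motif of STAT or TCF/LEF factors. Each window runs from 250 bases before to 50 after a RefSeq start site, 5′ to 3′ on the gene's strand of GRCm38.p6 (mm10), with the motif matches in capitals. They lie at chr11:117969317-117969616 on the minus strand for Socs3, and on the plus strand at chr9:107296409-107296708 for Cish, chr2:70474673-70474972 for Sp5 and chr17:8434173-8434472 for T.
Socs3: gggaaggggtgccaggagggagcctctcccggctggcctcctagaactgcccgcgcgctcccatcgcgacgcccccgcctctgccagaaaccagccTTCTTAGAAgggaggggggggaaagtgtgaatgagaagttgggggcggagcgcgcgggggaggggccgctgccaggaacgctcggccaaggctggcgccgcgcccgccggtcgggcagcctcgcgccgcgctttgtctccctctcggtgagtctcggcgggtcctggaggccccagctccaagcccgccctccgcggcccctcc
Cish: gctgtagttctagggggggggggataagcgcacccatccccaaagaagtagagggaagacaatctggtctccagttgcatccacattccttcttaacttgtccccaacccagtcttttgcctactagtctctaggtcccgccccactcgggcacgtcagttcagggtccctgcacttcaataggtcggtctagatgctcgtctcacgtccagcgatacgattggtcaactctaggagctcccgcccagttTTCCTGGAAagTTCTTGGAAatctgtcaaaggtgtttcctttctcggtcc
Sp5: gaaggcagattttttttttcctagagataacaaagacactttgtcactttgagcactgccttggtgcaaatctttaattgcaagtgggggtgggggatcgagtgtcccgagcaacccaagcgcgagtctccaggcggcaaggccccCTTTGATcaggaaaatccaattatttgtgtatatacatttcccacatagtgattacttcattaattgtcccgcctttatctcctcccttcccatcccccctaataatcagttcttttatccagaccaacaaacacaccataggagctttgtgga
T: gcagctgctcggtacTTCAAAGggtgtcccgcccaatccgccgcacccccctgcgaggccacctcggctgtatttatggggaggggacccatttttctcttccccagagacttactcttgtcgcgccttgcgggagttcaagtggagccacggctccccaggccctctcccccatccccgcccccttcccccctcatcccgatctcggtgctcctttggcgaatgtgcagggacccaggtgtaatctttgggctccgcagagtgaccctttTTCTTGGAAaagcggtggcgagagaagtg

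The search covered both strands for TTCNNNGAA and its stricter form TTCCNGGAA (STAT) and for CTTTGAA and CTTTGAT (TCF/LEF), where N is any base, so every strict STAT match is also a loose one. Socs3 held TTCTTAGAA at 154 to 146 bases before the start site, and this start lies 681 bases inside the 5′ end of the deposited gene. In Cish, whose start lies 633 bases from the deposited 5′ end, TTCCTGGAA and TTCTTGGAA followed each other just after the start. Sp5 held CTTTGAT at 104 to 98 bases before its start. In Brachyury, CTTTGAA read on the opposite strand lay 235 to 229 bases before the start, and TTCTTGGAA lay just after it. Among 14 genes looked at, Tnfrsf19 held 1 further loose STAT match, and the windows of Axin2, Bcl3, Stat3, Lef1, Cdx2, Junb, Pim3, Lifr and Tcf7 held none of these letters. The loose STAT motif occurred in 6.62% of the 9094 tested genes with a window, in 7.28% of those higher in LIF+PD and in 6.53% of those lower. For the strict form these shares were 1.21%, 1.71% and 0.552%, and for TCF/LEF 5.63%, 4.97% and 7.27%. Over all 32851 RefSeq windows the shares were 8.3%, 1.15% and 8.65% for the loose STAT, strict STAT and TCF/LEF motifs. The matches are letters in a window, and binding was not measured.

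Across the genome, 3355 of the 12777 genes (26.3%) differed between the media at an adjusted p below 0.05. Of these, 1865 (14.6% of those tested) were higher in LIF+PD and 1490 (11.7%) lower. The list counts given below are to be read beside these shares. Most changes were moderate, with a median absolute log2 difference of 0.78 among the called genes and a median of -0.004 over all genes tested. A log2 difference of at least 1 was reached by 745 of the higher and 420 of the lower genes, and one of at least 2 by 147 and 72. The 4 cultures did not overlap between media for any called gene, as was also the case for 63.2% of all genes tested. The counts rest on every culture, since without replicate 1 or 2 of LIF+PD they were 1213 and 1218 higher and 934 and 899 lower, and without replicate 1 of 2i 1347 higher and 959 lower.

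**Figure D1:**
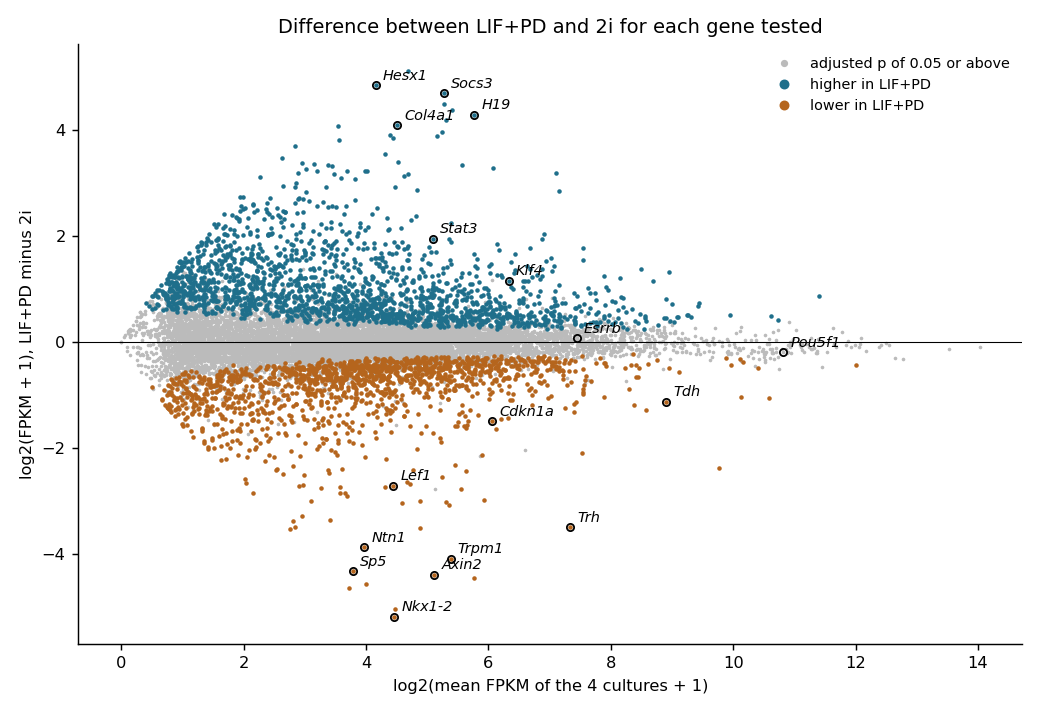
Each point is 1 of the 12777 genes tested, with the mean level of the 4 cultures as log2(FPKM + 1) on the x axis and the difference LIF+PD minus 2i on the y axis; coloured points have an adjusted p below 0.05. Socs3 and Hesx1 lie near the top, Axin2, Sp5 and Nkx1-2 near the bottom, and Pou5f1 and Esrrb close to 0.

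Stat3 and several of its known targets were higher in LIF+PD. Of the 26 genes on a list of receptor, kinase, STAT, feedback and target genes, 23 were tested, 10 were higher, 1 was lower and 12 did not pass, with a median log2 difference of 0.52. Stat3 itself rose from 9.69 and 17.1 FPKM to 56.0 and 49.6, a log2 difference of 1.95 ± 0.25 (SE, adjusted p = 0.00126). Bcl3, an IκB-family coactivator and known Stat3 target, rose from 4.19 and 2.90 to 62.8 and 76.8 (log2 difference 3.97 ± 0.20 (SE), adjusted p = 2.74e-05). Junb, an AP-1 subunit, rose from a mean of 0.996 ± 0.293 (SD, n = 2) to 18.8 ± 0.449 (log2 difference 3.32 ± 0.23, adjusted p = 6.93e-05). Cish, a second feedback inhibitor of cytokine receptors, rose from 0.301 and 0.872 to 8.64 and 15.0 (2.99 ± 0.29, adjusted p = 0.000347). In each of these 4 genes every LIF+PD culture lay above every 2i culture.

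At the receptor the members did not move together. Lifr rose modestly, from 7.43 and 8.46 FPKM to 12.3 and 12.4 (log2 difference 0.58 ± 0.11 (SE), adjusted p = 0.00801). Il6ra, the receptor for interleukin 6, was the single member that fell, from 4.26 and 4.36 to 0.991 and 0.377 (-1.68 ± 0.19, adjusted p = 0.000621). Il6st stood at 163 and 58.8 in 2i and at 57.9 and 92.7 in LIF+PD. The 2i cultures differed more from each other than the media did, and the interval of the Il6st difference ran from -1.61 to 0.79 (95%, adjusted p = 0.601).

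Wnt targets and feedback genes fell with few exceptions. Of 30 listed genes 17 were tested, 13 were lower in LIF+PD, 2 were higher and 2 did not pass, with a median log2 difference of -1.28. Sp5, a Wnt-induced zinc finger factor, fell from 28.6 and 21.9 FPKM to 0.188 and 0.417 (log2 difference -4.33 ± 0.15 (SE), adjusted p = 6.43e-06). The posterior homeobox genes Cdx1 and Cdx2 fell from 15.4 and 8.83 to 0.115 and 0.128, and from 12.2 and 10.6 to 0.0433 and 0.0960 (adjusted p = 8.85e-05 and 8.17e-05). T, the mesoderm factor Brachyury, fell from 15.4 and 8.24 to 0.161 and 0.210 (-3.38 ± 0.35, adjusted p = 0.000436). All 4 genes were below 0.5 FPKM in both LIF+PD cultures. Tnfrsf19, a receptor of the TNF family, fell from 16.1 and 18.9 to 4.22 and 3.55 (adjusted p = 0.000239). Rnf43, a ubiquitin ligase that removes Wnt receptors, fell from 2.09 and 1.41 to 0.0769 and 0.0405 (adjusted p = 0.00621). On the log2(FPKM + 1) scale these falls were smaller, at -1.92 and -1.37, although the mean of Rnf43 was 29.9-fold higher in 2i. Rnf43 passed the filter on low values only through its 2i cultures, so a call of higher was hardly open to it.

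The 2 members that rose were Sfrp5 and Apcdd1, both known as Wnt inhibitors. Apcdd1 went from 1.80 and 2.16 FPKM to 5.18 in both cultures (log2 difference 1.05, adjusted p = 0.00134). Sfrp5 went from 0.949 and 0.435 FPKM to 6.20 and 8.51, a log2 difference of 2.31 ± 0.22 (SE, adjusted p = 0.000311). It passed the filter on low values only through its LIF+PD cultures, so a call of lower was hardly open to it. Ccnd1, which encodes cyclin D1, passed with a small difference, from 108 and 131 to 95.2 and 88.3 (-0.37 ± 0.11, adjusted p = 0.0355), and its call was lost under 7 of the 15 alternatives, among them the omission of replicate 2 of 2i or of either LIF+PD culture. With each of the 4 cultures left out in turn, 12 or 13 members were lower.

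Set against 2i+LIF, which shares CH and PD with 2i and shares LIF and PD with LIF+PD, Socs3 and Axin2 changed at different steps, while other members of the 2 lists changed at either or both. The 2 steps share the 2i+LIF cultures, so their values are only set side by side; over all genes 19.7% were called between 2i+LIF and 2i, and 26.7% between LIF+PD and 2i+LIF. Socs3 and Stat3 were 4.65 and 1.95 higher on the log2 scale in 2i+LIF than in 2i, and 0.04 and 0.00 apart between LIF+PD and 2i+LIF. Axin2 showed the reverse, with -0.11 for the addition of LIF and -4.29 for the removal of CH. Lef1, a TCF-family factor and Wnt target, did not follow Axin2, and in CH+LIF it was at 31.3 and 17.9 FPKM. It stood at 37.1 and 36.4 FPKM in 2i, 6.02 and 5.46 in 2i+LIF and 4.52 and 4.97 in LIF+PD, so that it fell at the addition of LIF (-2.49 ± 0.22 (SE), adjusted p = 0.000359) and differed by -0.23 ± 0.22 (SE) where CH was removed (adjusted p = 0.483). Of the other Wnt targets named, Sp5, T, Tnfrsf19 and Rnf43 also differed at the addition of LIF, by 1.36, -1.24, -0.83 and -0.89 (adjusted p = 0.000978, 0.0428, 0.0136 and 0.0444). At the removal of CH, Sp5, T and Tnfrsf19 differed by -5.69, -2.14 and -1.09 (adjusted p = 2.13e-06, 0.00392 and 0.00342). Rnf43 differed there by -0.48 and did not pass (adjusted p = 0.201). On the JAK-STAT3 list, Lifr and Il6ra differed by -0.04 and 0.29 at the addition of LIF and by 0.62 and -1.98 at the removal of CH (adjusted p = 0.00661 and 0.000344 for the latter). Cish was higher in LIF+PD than in 2i+LIF, where LIF was also present, by 2.13 ± 0.29 (SE, adjusted p = 0.00189), at 2.21 and 1.51 FPKM in the 2i+LIF cultures. At the addition of LIF, Cish differed by 0.86 ± 0.29 (SE) and did not pass (adjusted p = 0.0782).

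**Figure D2:**
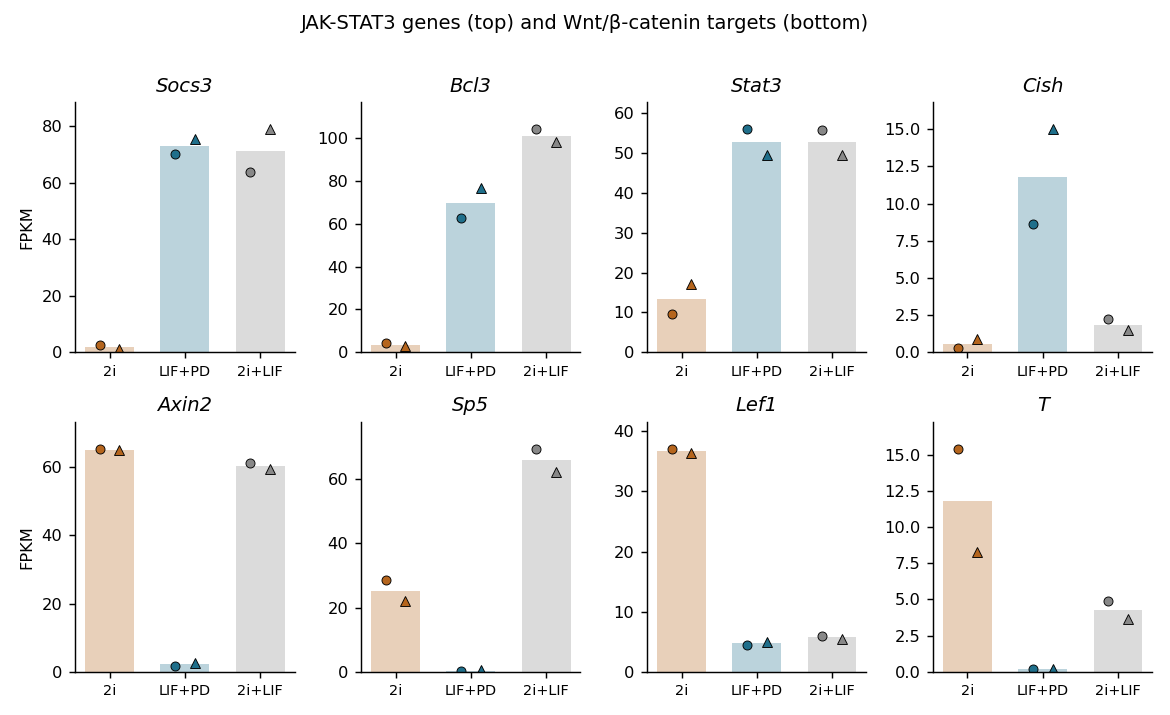
FPKM of 4 genes of the JAK-STAT3 list (top row) and 4 Wnt targets (bottom row) in 2i, LIF+PD and 2i+LIF; bars are means of 2 cultures, circles replicate 1 and triangles replicate 2, and each axis starts at 0. Socs3, Bcl3 and Stat3 are low in 2i alone, Axin2, Sp5 and T are lowest in LIF+PD, and Lef1 is high in 2i alone.

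The core machinery of the Wnt pathway was called at a share near that of all genes tested, of which 26.3% passed in either direction and 14.6% were higher. All 24 listed genes were tested, 5 were higher, 0 were lower in the limma fit (also 0 at an unadjusted p below 0.05) and 19 did not pass, with a median of 0.14. The β-catenin gene Ctnnb1 stood at 390 and 352 FPKM in 2i and 425 and 356 in LIF+PD, and the interval of its log2 difference ran from -0.19 to 0.33 (95%, adjusted p = 0.684). Among the TCF factors, Tcf7l1, the main repressor of the family in ESCs, rose from 130 and 136 to 212 and 204 (0.64 ± 0.11 (SE), adjusted p = 0.00394). Tcf7l2 rose from 7.23 and 12.1 to 26.4 and 26.7 (1.40 ± 0.20, adjusted p = 0.00219). The other 3 higher members were the Groucho corepressor Tle3, the coreceptor Lrp5 and the casein kinase gene Csnk1a1, at 0.87, 0.56 and 0.27. The calls of Tle3 and Lrp5 were lost without replicate 1 of 2i or without replicate 1 of LIF+PD, and that of Csnk1a1 without any 1 of the 4 cultures. Without replicate 1 of 2i or without replicate 1 of LIF+PD, the members that passed were no longer all higher.

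The components of the naive network either were higher in LIF+PD or did not pass the test. The list holds Stat3, Klf4, Tcf7l1, Sall4, Tbx3, Pou5f1, Sox2, Nanog, Esrrb, Klf2, Tfcp2l1 and Gbx2. Of these 12, 5 were higher in LIF+PD, 0 were lower in the limma fit (also 0 at an unadjusted p below 0.05) and 7 did not pass, with a median log2 difference of 0.21. The 5 include the repressor Tcf7l1 named above, so they are not all activators of the naive state. Klf4 rose from 47.7 and 50.6 FPKM to 117 and 103 (1.15 ± 0.12 (SE), adjusted p = 0.000444), and Sall4 from 214 and 226 to 331 and 337 (0.60 ± 0.09, adjusted p = 0.00212). Tbx3 went from 45.9 and 39.1 to 76.6 and 54.1 (0.59 ± 0.16, adjusted p = 0.0270), a call that was lost without replicate 2 of 2i, without replicate 1 of LIF+PD, with the 4 cultures alone and with no filter on low values.

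The 7 components that did not pass can be read by their 95% intervals. Nanog was at 483 and 409 FPKM in 2i and 500 and 493 in LIF+PD, with an interval from -0.10 to 0.42. Esrrb ran from -0.18 to 0.32, Pou5f1 (Oct4) from -0.45 to 0.04, Klf2 from -0.50 to 0.04 and Tfcp2l1 from -0.40 to 0.13. Sox2 stood at 226 and 198 against 264 and 242, with an upper bound of 0.52, and was called higher under rescaling to TPM and with the replicate block. Gbx2 was weak in both media and ran from -0.29 to 0.40. Differences of the size called for Sall4, at 0.60, lay outside all 7 intervals.

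Several genes that did not pass between LIF+PD and 2i differed from both in 2i+LIF. Gbx2, a homeobox factor of the LIF and Wnt arms, was at 2.65 and 2.09 FPKM in 2i, at 2.27 and 2.73 in LIF+PD and at 14.9 and 13.5 in 2i+LIF. Its 2 steps were 2.17 and -2.12, each with an SE of 0.15 (adjusted p = 0.000117 and 0.000105). Tfcp2l1, a target of both LIF and β-catenin signals, was at 62.8 and 53.7, 57.0 and 48.9, and 115 and 123 in the same order, with steps of 1.03 and -1.16. The opposite pattern was found in Utf1, Dnmt3l and Lin28a, which were picked after their values were seen, and in Pax6. Utf1, a chromatin factor of pluripotent cells, was at 280 and 263 in 2i, 287 and 235 in LIF+PD and 90.7 and 65.5 in 2i+LIF. Dnmt3l, the cofactor of the de novo methyltransferases, was at 150 and 140, 165 and 190, and 47.1 and 25.4. Lin28a, which blocks let-7 maturation, was at 92.9 and 102, 81.5 and 103, and 31.2 and 29.4. Pax6, a factor of the neural list, was at 7.81 and 9.20, 11.3 and 10.7, and 0.577 and 0.459. None of the 4 passed between LIF+PD and 2i (adjusted p = 0.820, 0.413, 0.627 and 0.127).

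**Figure D3:**
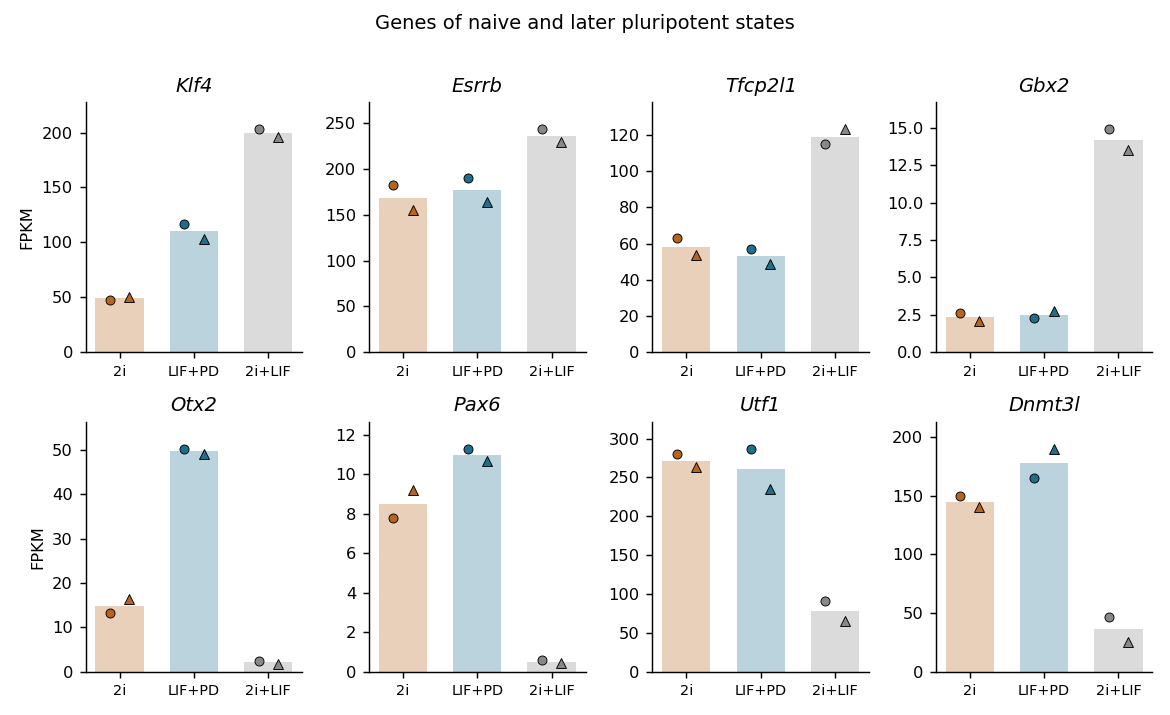
FPKM of 8 genes in 2i, LIF+PD and 2i+LIF, drawn with bars for means of 2 cultures, circles for replicate 1 and triangles for replicate 2. Esrrb, Tfcp2l1 and Gbx2 have like bars in 2i and LIF+PD below 2i+LIF, Pax6, Utf1 and Dnmt3l have like bars above it, and Klf4 and Otx2 differ in all 3 media.

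Naive markers outside the network were more often higher in LIF+PD. Of 23 tested members 11 were higher, 2 lower and 10 did not pass, with a median of 0.38. Fbxo15, an F-box gene of ESCs, rose from 105 and 85.7 FPKM to 272 and 282 (log2 difference 1.54 ± 0.13 (SE), adjusted p = 0.000161), and Klf5 from 76.2 and 60.8 to 172 and 156 (1.25 ± 0.12, adjusted p = 0.000279). Tet2, which oxidises methylated cytosine, rose from 6.70 and 7.05 to 15.0 and 15.1 (adjusted p = 0.000317). Zfp42, the reporter locus, was at 203 and 190 against 253 and 260 (0.38 ± 0.09, adjusted p = 0.0187), which was lost without replicate 2 of 2i or either LIF+PD culture. Tdh, the threonine dehydrogenase of mouse ESCs, fell from 665 and 646 to 328 and 272 (-1.13 ± 0.11, adjusted p = 0.000297), and the ubiquitin ligase Mkrn1 fell from 343 and 296 to 156 and 150 (-1.05 ± 0.12, adjusted p = 0.000745). Without replicate 1 of LIF+PD the higher members numbered 7, and without replicate 2 of 2i the lower ones numbered 4.

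Genes downstream of ERK did not move as a block, with MEK inhibited in both media. Of 19 tested, 4 were higher, 4 were lower and 11 did not pass, with a median of 0.17. Beside these counts, 14.6% of all genes tested were higher and 11.7% lower. Dusp6, the ERK phosphatase most used as a readout, was at 5.99 and 3.55 FPKM in 2i and 6.86 and 4.11 in LIF+PD (0.17 ± 0.26 (SE), adjusted p = 0.680), and the replicates of each medium differed more than the media. Spry4 and Egr1 were below 1 FPKM in all 4 cultures. The immediate-early genes Ier3 and Fos rose, from 2.33 and 2.30 to 8.79 and 9.86 and from 0.832 and 0.857 to 3.97 and 4.09 (adjusted p = 0.000156 and 0.00191). Spred1, an inhibitor of RAS signalling, fell from 7.89 and 7.27 to 2.73 and 2.66 (-1.21 ± 0.12, adjusted p = 0.000385). The lower members numbered 2 without replicate 1 of 2i and 1 without replicate 2 of LIF+PD.

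Formative and primed genes were divided. Of 23 tested, 5 were higher, 8 lower and 10 did not pass, with a median of -0.20. Among all genes tested the shares were 14.6% higher and 11.7% lower. Otx2, which drives the exit from the naive state, rose from 13.2 and 16.4 FPKM to 50.3 and 49.2 (1.69 ± 0.15 (SE), adjusted p = 0.000216), while 2i+LIF held 2.44 and 1.80. Pou3f1 (Oct6) rose from 0.509 and 0.787 to 3.52 and 3.58 (1.47 ± 0.21, adjusted p = 0.00219), and Foxd3 from 9.22 and 9.08 to 25.2 and 21.1 (1.25 ± 0.15, adjusted p = 0.000894). Zic2 fell from 102 and 89.4 to 56.0 and 45.1 (-0.91 ± 0.16, adjusted p = 0.00438). Sox3 fell from 2.12 and 1.98 to 0.624 and 0.479 (-0.98 ± 0.20, adjusted p = 0.0102), which was lost without replicate 2 of LIF+PD. Epha1 fell from 0.697 and 2.01 to 0.145 and 0.193 (-0.95 ± 0.26, adjusted p = 0.0309). The call of Epha1 was lost, among other settings, with the 4 cultures alone and with no filter on low values. Fgf5, a marker of the postimplantation epiblast, did not pass the filter, at 0.311 and 0.281 in 2i and 0.426 and 0.473 in LIF+PD. Dnmt3b was at 42.5 and 66.5 against 41.9 and 50.9 (adjusted p = 0.489). The 8 lower members became 4 without replicate 2 of 2i, 5 without replicate 1 of LIF+PD and 3 without replicate 2 of LIF+PD.

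Lineage markers were used to see whether cells of other types came with either medium. Bulk RNA cannot tell a change in the number of such cells from a change in RNA per cell. Of 24 mesoderm and definitive endoderm genes 11 were tested, with 2 higher and 4 lower, and their summed FPKM was 56.1 and 46.2 in 2i and 26.2 and 33.0 in LIF+PD. Apart from T, the ligand Bmp4 fell from 9.52 and 8.07 to 2.37 and 1.59 (adjusted p = 0.000324) and Snai1, a regulator of epithelial-mesenchymal transition, from 11.1 and 14.9 to 3.97 and 6.91 (adjusted p = 0.00846). Gsc, the homeobox gene goosecoid, rose from 1.53 and 0.175 to 6.77 and 6.10 (adjusted p = 0.00273). The defining endoderm factor Sox17 was at 0 in both 2i cultures and at 0.0911 and 0.101 in LIF+PD, and Mixl1 was below 1 in all 4.

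On the primitive endoderm list the calls were mostly towards LIF+PD. Of 22 listed genes 11 were tested, 7 were higher and 2 lower, with a median of 0.92. Those that rose include basement membrane genes, led by Col4a1 and Col4a2, the neighbouring genes of the type IV collagen chains. Col4a1 rose from 1.33 and 1.73 FPKM to 41.1 and 42.9 (4.09 ± 0.14 (SE), adjusted p = 6.43e-06) and Col4a2 from 0.741 and 1.01 to 16.1 and 19.8 (3.33 ± 0.17, adjusted p = 2.53e-05). Lama1, a laminin chain, rose from 5.79 and 4.18 to 12.3 and 18.5 (1.44 ± 0.23, adjusted p = 0.00313). Col4a2 and a further higher member, Dab2, passed the filter on low values only through their LIF+PD cultures, so a call of lower was hardly open to them. The counts and the median of this list are partly set by that filter. The defining factors were weak in both media, with Gata6 at 0 and 0.123 against 0.0297 and 0.198 and Sox7 at 0.115 and 0.0594 against 0.546 and 0.796, neither of which passed the filter. Gata4 was at 1.17 and 0.725 against 1.93 and 1.83, without overlap (adjusted p = 0.0625), and was called higher in the fit without a mean-variance trend. The summed level of the list was lower in LIF+PD, at 1432 and 1636 against 2224 and 2452 in 2i, and most of that sum was Apoe, the apolipoprotein E gene, which fell from 1973 and 2182 to 920 and 1063.

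The neural list, of which 7 genes of 20 were tested, had 5 higher members and 0 lower in the limma fit (0 also at an unadjusted p below 0.05). Neurod1 and Neurog1 passed the filter on low values only through their LIF+PD cultures, so a call of lower was not open to them. The counts and the median of this list are partly set by that filter. Its summed level was 15.5 and 20.9 in 2i and 54.2 and 56.0 in LIF+PD. Neurod1, a neuronal bHLH factor, rose from 0.636 and 0.729 FPKM to 11.5 and 11.9 (2.92 ± 0.18 (SE), adjusted p = 4.98e-05), Sox21 from 2.34 and 3.20 to 14.9 and 16.4 (2.15 ± 0.16, adjusted p = 0.000119) and Nes, the intermediate filament nestin, from 2.78 and 3.14 to 7.67 and 7.14 (adjusted p = 0.00129). Sox1, the defining factor of the early neural plate, was at 0 and 0.0595 against 0.748 and 1.34, and its call was lost without replicate 1 of 2i or replicate 2 of LIF+PD.

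Trophectoderm genes, 13 tested of 20, had 4 higher and 3 lower members, and their summed levels were 139 and 139 in 2i and 156 and 175 in LIF+PD. The keratins Krt8 and Krt18 rose, Krt8 from 1.90 and 4.21 FPKM to 10.9 and 14.2 (adjusted p = 0.00403) and Krt18 from 1.80 and 2.63 to 4.78 and 6.38 (adjusted p = 0.00612). The transcription factors of the list were divided. Tfap2c rose from 30.0 and 25.5 to 45.4 and 52.8 (adjusted p = 0.00612), and Gata3 from 1.70 and 6.83 to 14.4 and 18.4 (adjusted p = 0.0298), a call lost without replicate 1 of 2i or either LIF+PD culture. Cdx2, the factor that specifies the lineage, fell, as did Tfap2a, which went from 19.5 and 20.0 to 1.87 and 2.30 (-2.75 ± 0.12 (SE), adjusted p = 1.31e-05). Fibroblast markers gave 1 higher gene and 1 lower of 6 tested, with summed levels of 450 and 564 against 524 and 537. The higher gene was Vim (vimentin), lost without replicate 2 of LIF+PD, and the lower Fn1 (fibronectin), joined by 1 more without replicate 1 of 2i. The collagen gene Col3a1 was at 0 in all 4 cultures. The part of these markers of other cell types in the remaining results was not tested.

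The genes with the largest differences were taken as the 12 strongest in each direction that were expressed at a mean of at least 5 FPKM in 1 medium. Among the 12 highest in LIF+PD, Hesx1, a homeobox gene of the anterior neural plate and the epiblast, rose from 0 and 0.397 FPKM to 29.2 and 37.7 (4.85 ± 0.20 (SE), adjusted p = 1.21e-05). The noncoding RNA H19 rose from 5.94 and 3.00 to 94.1 and 111 (4.29 ± 0.33, adjusted p = 0.000119), and in 2i+LIF it stood at 2.34 and 0.795. Htra1, a secreted serine protease, rose from 2.37 and 2.19 to 63.2 and 83.5, and Serping1, the inhibitor of the complement protease C1, from 0.343 and 0.265 to 18.6 and 23.6 (adjusted p = 4.16e-05 and 8.40e-06). Khdc3, a gene of the maternal subcortical complex of the oocyte, rose from 2.10 and 1.60 to 40.1 and 39.4 (adjusted p = 6.43e-06). The chemokine gene Ccl25 rose from 2.01 and 1.25 to 34.5 and 41.8, the keratin gene Krt42 from 5.09 and 2.37 to 69.6 and 61.8 and Ly6g6e from 3.50 and 2.37 to 78.1 and 80.6 (adjusted p = 1.44e-05, 5.51e-05 and 6.43e-06). Socs3, Bcl3, Col4a1 and Myl9 complete the 12.

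Ly6g6e resembled Socs3 in its steps, with 3.93 at the addition of LIF and 0.44 at the removal of CH. For H19, Myl9 and Col4a1 the addition of LIF gave -1.11, -1.62 and -0.37, and the removal of CH 5.40, 5.81 and 4.46. Hesx1 rose at both steps, by 1.46 and 3.39 (adjusted p = 0.00261 and 5.67e-05).

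Of the 12 with the largest decrease, 5 are the Wnt targets Axin2, Sp5, Cdx1, Cdx2 and T. Nkx1-2, a homeobox gene of the posterior axis, showed the largest fall, from 43.1 and 40.6 FPKM to 0.145 and 0.193 (-5.19 ± 0.20 (SE), adjusted p = 8.87e-06). Pglyrp1, which encodes a peptidoglycan recognition protein, fell from 38.1 and 46.1 to 0.380 and 0.210 (-5.05 ± 0.20, adjusted p = 9.02e-06). The guidance cue netrin-1, from Ntn1, fell from 25.3 and 31.3 to 0.979 and 0.983, and the cation channel gene Trpm1 from 82.9 and 72.5 to 4.44 and 2.86 (adjusted p = 6.43e-06 and 9.40e-06). Trh, the gene of thyrotropin-releasing hormone, fell from 347 and 240 to 39.8 and 15.1 (-3.50 ± 0.39, adjusted p = 0.000621). Sccpdh fell from 53.9 and 51.7 to 2.80 and 4.89 (adjusted p = 3.59e-05). Porcn, the acyltransferase needed for the secretion of Wnt ligands, fell from 19.7 and 16.8 to 0.478 and 1.34 (-3.37 ± 0.39, adjusted p = 0.000779). Unlike Axin2, Porcn was already low in 2i+LIF, at 4.90 and 1.38, with a step of -2.36 ± 0.39 (SE) at the addition of LIF (adjusted p = 0.00541). In CH+LIF, which lacks PD, Porcn was at 20 and 19.3.

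**Figure D4:**
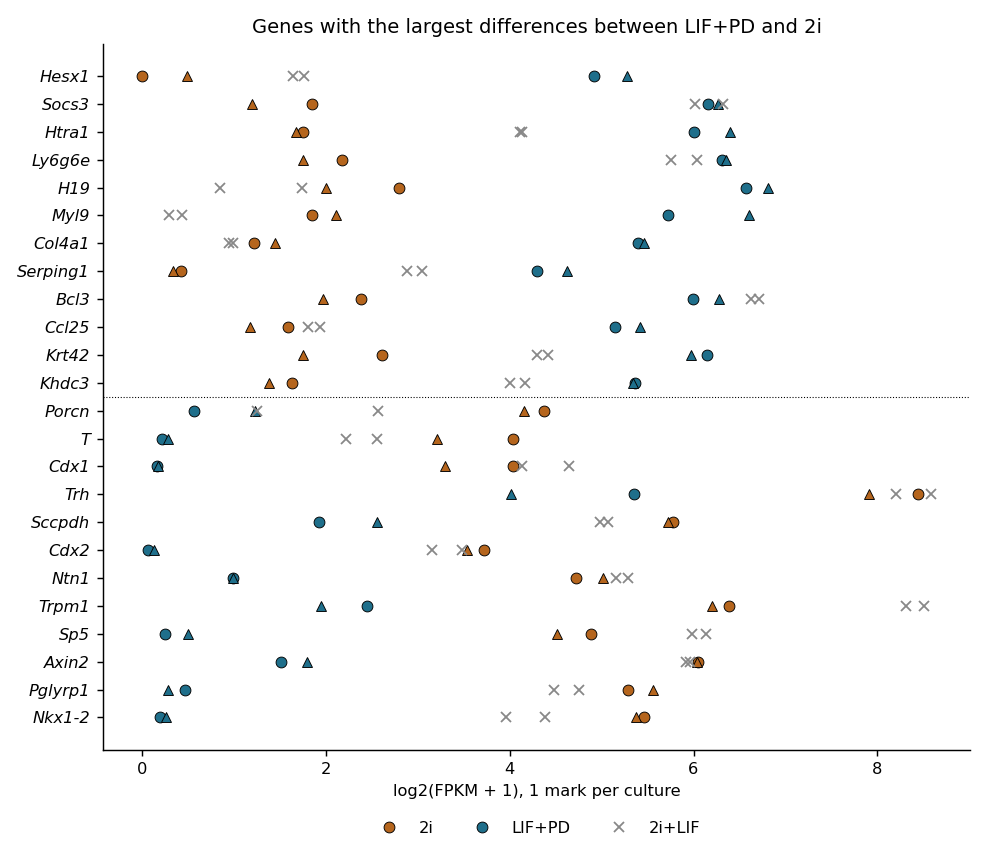
Level as log2(FPKM + 1) of the 12 genes with the largest increase (above the dotted line) and the 12 with the largest decrease in LIF+PD, with 1 mark for each culture of 2i, LIF+PD and 2i+LIF; circles are replicate 1, triangles replicate 2, and crosses both 2i+LIF cultures. The 2i and LIF+PD marks do not overlap in any of these genes, as the choice of genes required.

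Contractile genes and targets of SRF, the factor that couples actin dynamics to transcription, gave one of the most one-sided lists. Of 21 tested 15 were higher, 1 was lower and 5 did not pass, with a median of 0.72. Myl9, a regulatory myosin light chain, rose from 2.60 and 3.31 FPKM to 51.9 and 96.6 (4.19 ± 0.27 (SE), adjusted p = 5.84e-05), and the smooth muscle actin Acta2 from 0.113 and 0.117 to 3.22 and 8.46 (2.50 ± 0.34, adjusted p = 0.00161). The calponin gene Cnn2 rose from 39.9 and 52.0 to 159 and 226, and the tropomyosin genes Tpm1 and Tpm2 from 61.1 and 80.5 to 152 and 243 and from 17.3 and 15.4 to 34.8 and 50.4 (adjusted p = 0.00117, 0.00230 and 0.00148). In these 5 genes replicate 2 of LIF+PD was above replicate 1. Acta2 passed the filter on low values only through its LIF+PD cultures, so a call of lower was not open to it, and the counts partly reflect that filter. Tagln, at 1.81 and 1.07 against 2.39 and 3.51, did not pass (adjusted p = 0.0675). Ctgf went from 18.1 and 10.4 to 28.9 and 22.1 (0.83 ± 0.23, adjusted p = 0.0338), a call lost without replicate 2 of 2i or either LIF+PD culture. The 2 cytoplasmic actin genes, named after their values were seen, went opposite ways: Actb was at 1880 and 1949 against 3370 and 3594 (0.86 ± 0.09, adjusted p = 0.000480), and Actg1 at 556 and 523 against 223 and 217 (-1.29 ± 0.08, adjusted p = 5.05e-05).

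NODAL and BMP genes showed 3 higher and 6 lower members of 27 tested, with a median of -0.24. Over all genes tested 14.6% were higher and 11.7% lower. Id2 rose from 1.85 and 2.86 FPKM to 12.8 and 13.7 (2.10 ± 0.21 (SE), adjusted p = 0.000403), and Id3 fell from 16.3 and 16.4 to 3.91 and 2.57 (-2.05 ± 0.33, adjusted p = 0.00364), although both encode inhibitors of bHLH factors that BMP is known to induce. The NODAL targets Lefty1 and Lefty2 varied within each medium, Lefty1 at 109 and 49.2 in 2i against 66.4 and 3.08 in LIF+PD, and Lefty2 at 207 and 61.5 against 107 and 6.00. Neither passed (adjusted p = 0.195 and 0.235), but both passed as lower when replicate 1 of LIF+PD was left out, which also raised the lower members of the list from 6 to 9. Without replicate 1 of 2i or replicate 2 of LIF+PD 3 were lower.

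Among MYC and G1 genes, 7 were higher and 5 lower of 30 tested, with a median of 0.10. The shares over all genes tested were 14.6% and 11.7%. The inhibitor genes Cdkn1a (p21) and Cdkn2a (p16 and p19Arf) fell, Cdkn1a from 102 and 92.5 FPKM to 33.9 and 33.6 (-1.50 ± 0.09 (SE), adjusted p = 4.33e-05) and Cdkn2a from 73.7 and 60.9 to 25.8 and 26.3 (-1.33 ± 0.15, adjusted p = 0.000612). Cdk6 fell from 6.65 and 8.18 to 0.824 and 0.693 (-2.25 ± 0.14, adjusted p = 5.05e-05). The cyclin genes Ccne1 and Ccnd3 rose, from 71.5 and 66.5 to 161 and 154 and from 169 and 162 to 296 and 357 (adjusted p = 0.000318 and 0.00343). Mycn rose from 87.7 and 88.2 to 128 and 120 (0.49 ± 0.08, adjusted p = 0.00422), while Myc was at 12.5 and 9.89 against 10.2 and 4.85 (adjusted p = 0.214).

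In energy metabolism, few respiratory chain genes passed, beside 26.3% of all genes tested (14.6% higher and 11.7% lower). Of the 11 mitochondrially encoded subunits tested, 0 passed in the limma fit and 0 at an unadjusted p below 0.05. Of 29 nuclear subunits 1 (Sdhb) was higher and 1 (Ndufs7) lower, the latter lost without any 1 of the 4 cultures, and the median was -0.07 in both lists. Glycolysis and glucose transport gave 3 higher and 6 lower of 24, with a median of -0.38. The kinase Pdk1, which closes the entry of pyruvate to the mitochondrion, fell from 113 and 99.7 FPKM to 15.1 and 10.4 (-2.98 ± 0.26 (SE), adjusted p = 0.000216), and the transporter Slc2a3 (Glut3) from 440 and 380 to 224 and 214 (-0.90 ± 0.09, adjusted p = 0.000475). Hexokinase 2 (Hk2) rose from 32.1 and 25.5 to 71.6 and 71.5 (1.29 ± 0.12, adjusted p = 0.000303). Slc2a1 was higher by 0.40 ± 0.11 (adjusted p = 0.0298), a call lost without any 1 of the 4 cultures. Pfkfb3 was lower by -1.21 ± 0.28 (adjusted p = 0.0164), a call lost without replicate 1 of 2i or replicate 2 of LIF+PD. Cholesterol synthesis gave 2 higher and 8 lower of 24, with a median of -0.20. Ebp, the sterol isomerase, fell from 76.5 and 68.0 to 13.7 and 13.4 (-2.33 ± 0.10, adjusted p = 1.42e-05), and Sqle, squalene epoxidase, from 87.1 and 81.0 to 49.8 and 51.0 (-0.73 ± 0.08, adjusted p = 0.000562). Without replicate 1 of 2i the lower cholesterol genes numbered 5 and the higher ones 0, and without either LIF+PD culture 1 was higher.

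Imprinted genes, which are expressed from 1 parental allele, moved in both directions. Of 20 tested 7 were higher, 8 lower and 5 did not pass, with a median of -0.14. Igf2, the neighbour of H19, rose with it, from 0.805 and 1.25 FPKM to 4.28 and 4.29 (1.39 ± 0.27 (SE), adjusted p = 0.00746). Peg10 fell from 94.2 and 119 to 31.8 and 45.0 and its neighbour Sgce from 10.9 and 11.1 to 3.24 and 3.45 (adjusted p = 0.00219 and 0.00884). Plagl1, a zinc finger factor, fell from 68.1 and 59.0 to 9.56 and 10.4 (-2.55 ± 0.12, adjusted p = 1.49e-05), and Phlda2 from 25.2 and 19.8 to 8 and 8.14 (-1.36 ± 0.12, adjusted p = 0.000226). Without replicate 2 of LIF+PD the higher members numbered 4, and without replicate 1 of LIF+PD the lower ones numbered 5. Allelic origin was not measured.

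Genes of DNA methylation and of the germline were called in both directions, beside 26.3% called over all genes tested. Of 16 methylation enzymes and readers 5 were higher and 2 lower, with a median of 0.07, and without replicate 1 of LIF+PD 2 were higher. Dnmt1, the maintenance methyltransferase, was at 82.2 and 86.2 FPKM against 94.2 and 91.8 (adjusted p = 0.197), and Mbd1, a reader of methylated DNA, fell from 8.19 and 7.78 to 3.26 and 3.18 (-1.09 ± 0.12 (SE), adjusted p = 0.000549). Germline genes, known to be silenced by methylation, gave 3 higher and 2 lower of 13, with a median of 0.17. Zcwpw1 rose from 10.3 and 9.56 to 24.3 and 29.4 (1.34 ± 0.16, adjusted p = 0.000823) and Ddx4 (Vasa) fell from 6.34 and 6.02 to 2.52 and 1.79 (-1.20 ± 0.17, adjusted p = 0.00222). Without replicate 1 of LIF+PD 1 germline gene was higher and 1 lower, and without replicate 1 of 2i 1 was lower.

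**Figure D5:**
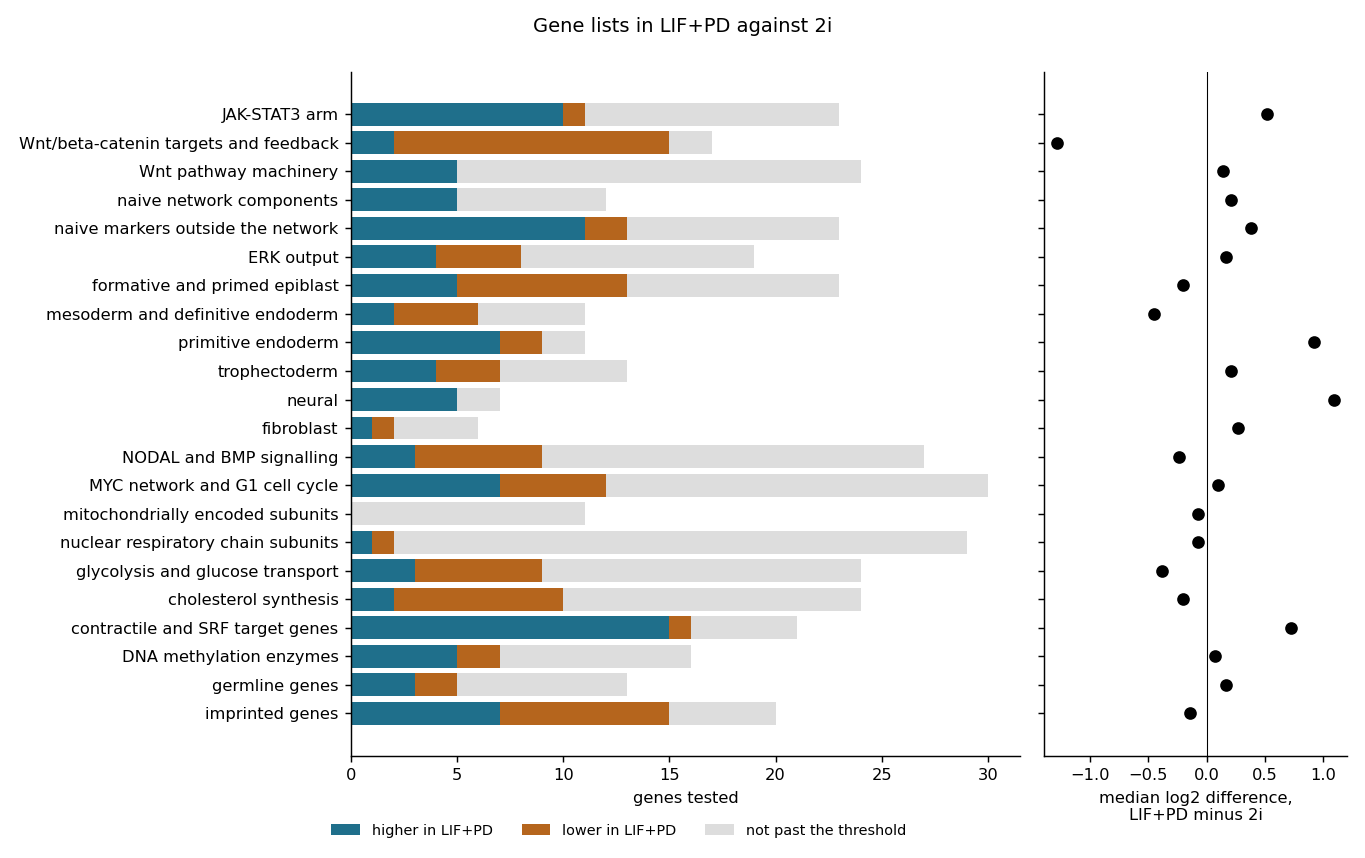
For each of the 22 gene lists, the left panel shows how many tested genes were higher in LIF+PD, lower or not past an adjusted p of 0.05, and the right panel the median log2 difference of the tested members, LIF+PD minus 2i. Wnt targets lie furthest below 0 at -1.28 and the neural list furthest above at 1.09, beside a median of -0.004 over all genes tested. Members of the neural and other lists that passed the filter only through LIF+PD could hardly be called lower, nor could those that passed only through 2i be called higher.

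Replicate 1 of 2i had about 0.516 of the depth of replicate 2 of 2i, and the cultures were otherwise close in the measures available. Pearson's r across genes, which are not independent replicates, was 0.986 between the 2i cultures, 0.989 between the LIF+PD cultures and 0.944 to 0.95 between media. The sums of FPKM ranged from 765724 to 860381, and the 10 most abundant genes held 12.3% to 16.4% of them. Relative depth, read from the commonest FPKM ratio of weakly expressed genes, was 0.93 to 1.03 in the LIF+PD cultures on the same scale.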

How the data were processed

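RNA-seq of 8 ESC cultures was used, with 2 in each of 4 media. Per the methods, the authors mapped single-end reads to mm10 (Ensembl 75 genes) and used reads with a unique position. The submitters' processing notes name TopHat2, Cufflinks and Cuffdiff. The authors deposited 1 FPKM value per gene and culture, scaled to transcript length and library size, and no read counts were used here. The methods describe rRNA-depleted RNA and the sample records polyA RNA. Read depth is unknown, so no counting error is given.

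Rows with the same Ensembl identifier were summed, 6670 genes under 300 bases were left out, and genes that reached 1 FPKM in 2 or more of the 8 cultures were kept. Values were taken as log2(FPKM + 1). All 4 media entered 1 limma fit (limma 3.58.1, R 4.3.3) with a mean-variance trend and without a replicate block, which left 4 residual degrees of freedom. An exact permutation test of 2 cultures against 2 cannot reach 0.05. The procedure was tested on simulated data in which every gene had the same spread, unlike these data, so that test does not cover unequal spread.

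The 22 lists, the genes to be named and the comparison itself were chosen with earlier results of these data known. Genes named were set members of each list and up to 4 further members with the largest called differences. To these came the 12 largest called increases and decreases with a mean of at least 5 FPKM in 1 medium, no overlap and the same direction under 3 rescalings. Genes known only by a predicted or clone name were counted but not named (1 higher, 3 lower). Utf1, Dnmt3l, Lin28a, Il6st, Apoe, Apcdd1, Actb and Actg1 were added after their values were seen. Promoter windows were the RefSeq start nearest to the deposited 5′ end, found for 9094 genes. The 15 alternatives were other pseudocounts, filters and scalings, the 4 cultures alone, no trend, a replicate block, short genes kept and each culture left out. Tables and figures were made with Python 3.11.15, numpy 2.4.6, pandas 2.3.3 and matplotlib 3.10.9.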

Additional observations from a re-analysis of the deposited data

How the results depend on the processing

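Against 1865 higher and 1490 lower genes, the other pseudocounts, filters, rescalings, the fit without trend and the inclusion of short genes gave 1402 to 1977 higher and 1096 to 1757 lower. With the 4 cultures alone 1504 were higher and 1086 lower. Leaving out 1 culture at a time gave 1213 to 1554 higher genes and 899 to 1171 lower genes, and 59.9% to 71.0% of the calls were kept. No call turned into a call of the opposite direction under any of the 15 alternatives, and no named gene that was called changed sign. Named genes that were not called could change sign, as Ctnnb1 did from 0.07 to -0.06 without replicate 1 of LIF+PD. Rescaling to equal sums (TPM) shifted the median of all genes to 0.059 and made 64.3% of calls higher, against 55.6%. The replicate block gave 1964 higher and 1599 lower genes. Over all genes tested, same-numbered cultures of the 2 media did not deviate together (r = 0.0362), so the numbers were not taken to pair them. Single genes could still share a replicate difference. Ldha, a glycolysis gene, was at 667 and 425 FPKM in 2i and 468 and 293 in LIF+PD, and was called lower only with the replicate block. The 2 cultures per medium and the unknown read depth limit the precision, most of all for weakly expressed genes.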
